A study of Mus musculus with 10 samples.

Results

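Levels of 8 regulators and effectors of epithelial-mesenchymal transition were followed across 10 RNA libraries of differentiating mouse embryonic stem (ES) cells. The 8 genes, Snai1, Snai2, Twist1, Twist2, Zeb1, Zeb2, Cdh2 and Vim, were chosen by symbol and make up 8 of the 21937 symbols of the deposited table. Its values are RPKM, which scale reads to the length of the transcript and the size of the library. All 8 symbols were found, each once.

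Epithelial-mesenchymal transition is the change by which cells of a sheet loosen their junctions and become motile, as when mesoderm leaves the primitive streak or neural crest leaves the neural tube. The zinc finger proteins of the SNAI and ZEB families bind E-box sequences and repress epithelial genes such as Cdh1, which encodes E-cadherin, while the TWIST proteins are basic helix-loop-helix factors of mesoderm and crest. Cdh2 encodes N-cadherin and Vim the intermediate filament protein vimentin, both of mesenchymal cells but also standard products of neural progenitors.

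The libraries came from C57BL/6 ES cells, with a single library (1) per condition at each day. SFEB, a serum-free aggregate culture that favours neuroectoderm, was sampled at days 6 and 10 for wild-type cells (WT), cells with a Tet3 knockout (Tet3 KO, written KO below) and KO cells given Dkk (written KO+Dkk). The other culture contained fetal bovine serum (FBS), is described as non-permissive for neural fate, and was sampled at days 4 and 7 for control cells (CTL) and Tet3-overexpressing cells (written OE). Tet3 oxidises 5-methylcytosine in DNA, and Dkk proteins are secreted antagonists of Wnt signalling.

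The knockout was made in cells from mice with floxed Tet3 alleles by transient Cre expression, which removed 1 exon. The number of knockout lines, the genotype of the CTL cells, the vector and promoter used for overexpression, and the form and dose of Dkk were not stated in the labels. Within SFEB and within FBS, genotype therefore cannot be told apart from cell line. Between SFEB and FBS the days differ too and the cell lines may differ, so the type of culture cannot be told apart from them. With 1 library per condition and day no single comparison below has a replicate check. In bulk RNA, fewer cells of a type and less RNA per cell cannot be told apart.

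Tet3 itself stood at 6.59 to 14.3 RPKM in the SFEB libraries, KO included, and a value over the whole gene does not check the loss of 1 exon. In FBS it was 0.96 and 5.87 RPKM in CTL and 12.5 and 14.1 RPKM in OE at days 4 and 7. The labels call every sample embryonic stem cells. Pou5f1, a defining pluripotency gene, lay between 207 and 1186 RPKM in FBS and between 3.06 and 58.1 RPKM in SFEB. Depth, estimated from the steps between low RPKM values, was 10200000 to 11300000 reads in 5 SFEB libraries, 36900000 in KO+Dkk at day 10 and 17400000 to 43300000 in FBS. The KO+Dkk estimate of day 10 was the least certain in SFEB. Of the low values used, 62.7% were within 0.15 read of a whole number there, against 68.1% or more in the other 5. The CTL library of FBS day 7 stood apart by its blood RNA, with Hbb-y, an embryonic globin picked out after its values were seen, at 1113 RPKM against 11.8 RPKM or less in each of the other 9.

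Among the 8 genes, Vim had the highest RPKM and Cdh2 the next highest in each of the 10 libraries. In the 6 SFEB libraries Twist2 was always the lowest and Snai2 always below Twist1. The widest range across libraries was that of Twist2, whose highest value was 219.86 times its lowest (itself only 2 estimated reads), followed by Snai2 at 48.8 times. Snai1, Twist1 and Vim ranged least, by 10.9, 8.26 and 8.19 times. Values of Zeb2 carry an extra uncertainty, because an annotated antisense gene overlaps it and the strand setting of the counting is not given in the sources used here.

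**Figure D1:**
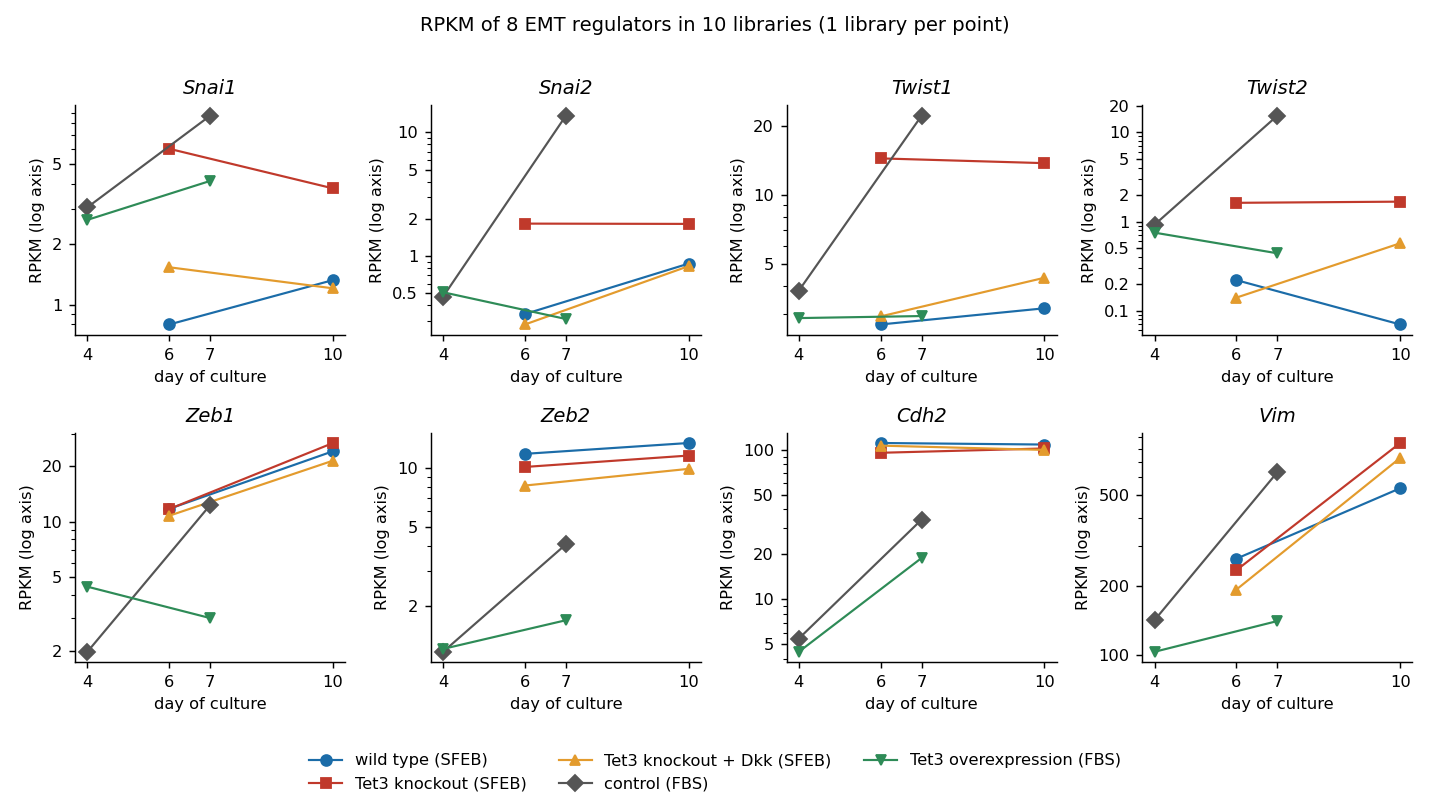
RPKM (log axes, scaled for each gene) of the 8 genes against day of culture, with 1 point per library and lines joining the 2 days of a condition. In SFEB KO (red squares) is the highest of the 3 conditions on both days for Snai1, Snai2, Twist1 and Twist2, and in FBS the CTL library of day 7 is the highest of 4 for all 8 genes.

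Upstream sequences were available in the RefSeq table (build GRCm38.p6) for 5 of the 8 genes, and those of Snai1, Twist1 and Twist2 are shown because these genes moved together in KO. Each run is the 250 bases before the annotated start on the plus strand, 5′ to 3′, at chr2:167537945-167538194 for Snai1, chr12:33957421-33957670 for Twist1 and chr1:91801211-91801460 for Twist2. Capitals mark matches, on either strand, to CAGGTG (the E-box bound by SNAI and ZEB proteins), CCAAT and TATAAA.
Snai1: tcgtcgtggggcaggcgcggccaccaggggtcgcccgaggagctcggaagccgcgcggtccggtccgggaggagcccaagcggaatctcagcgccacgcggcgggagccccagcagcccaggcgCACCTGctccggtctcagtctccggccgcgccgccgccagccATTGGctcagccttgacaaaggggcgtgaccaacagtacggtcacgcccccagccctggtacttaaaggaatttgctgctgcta
Twist1: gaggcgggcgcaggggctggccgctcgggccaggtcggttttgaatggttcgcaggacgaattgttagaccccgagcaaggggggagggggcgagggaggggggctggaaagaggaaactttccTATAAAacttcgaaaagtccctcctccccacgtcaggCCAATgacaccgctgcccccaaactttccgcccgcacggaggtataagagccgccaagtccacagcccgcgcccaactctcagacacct
Twist2: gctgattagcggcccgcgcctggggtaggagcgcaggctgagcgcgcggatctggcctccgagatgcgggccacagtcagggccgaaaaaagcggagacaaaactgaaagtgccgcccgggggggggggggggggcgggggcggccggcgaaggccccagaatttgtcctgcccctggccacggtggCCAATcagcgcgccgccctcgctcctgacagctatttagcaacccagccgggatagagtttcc
The Snai1 window held 1 CAGGTG E-box, read as CACCTG on this strand at position -126 from the start, and no other CANNTG. Neither Twist window held any CANNTG. Over 32851 windows of the same length, 17.2% held CAGGTG and 66.2% held CANNTG, of which CAGGTG is one form. CCAAT was found in all 3 windows, at -84, -89 and -63, and in 33.8% of all windows, while TATAAA was found in Twist1 at -126 and in 12.4% of all. CTTTGAA and CTTTGAT, forms of the site of the TCF/LEF factors of the Wnt pathway, were in none of the 3 windows and 1 or the other was in 7.5% of all. The windows of Vim and Zeb2, genes that stayed under 2-fold in KO, shared much of this. For Vim, CCAAT lay at -196 and -94, and TATAAA was found at -32. For Zeb2, CCAAT lay at -238 and -89 in the first of 4 windows and was absent from the rest. No E-box and neither TCF/LEF form was found in any window of these genes. CCAAT and TATAAA thus occurred both in genes that were higher in KO and in genes that stayed under 2-fold. With windows for only 5 of the 8 genes, whether any of these traits set apart the genes higher in KO cannot be judged. A match is a run of letters, not a measured site. CCAAT and TATAAA were added to the search after the sequences had been seen. GC content was 70.0%, 62.4% and 68.8% in the 3 windows.

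The first comparison asked how the 8 genes differed between KO and WT cells in neural (SFEB) culture. All 4 SNAI and TWIST genes were higher in KO on both days, while Zeb1, Zeb2 and Cdh2 stayed within a log2 difference of 0.22. A gene was counted as at least 2-fold different from log2(RPKM + 0.5), among genes at 1 RPKM or more in some library of the culture. All 8 genes passed that filter in both cultures. Snai2 and Twist2 did so in SFEB through the libraries of KO without Dkk alone and in FBS through the CTL library of day 7 alone, so their counts follow in part from the filter.

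Snai1, the SNAI family member that acts in gastrulation, was at 0.80 RPKM in WT, 5.98 in KO and 1.54 in KO+Dkk at day 6. On day 10 the same 3 conditions gave 1.33, 3.80 and 1.21 RPKM. KO was the highest on both days, with 7.48 times the WT value at day 6. The 95% counting interval of that log2 read ratio was 2.09 to 3.89, and that of day 10 was 0.84 to 2.27. These intervals come from estimated reads, only 13 for Snai1 in WT at day 6, and cover counting error alone.

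Snai2, also called Slug and known from neural crest, was low throughout SFEB. It was at 0.34, 1.83 and 0.28 RPKM in WT, KO and KO+Dkk at day 6, and at 0.87, 1.82 and 0.83 RPKM at day 10. KO values were nearly equal on the 2 days, and the WT value was higher at day 10. The log2 ratio of KO to WT was 1.47 at day 6 and 0.76 at day 10, the latter under the 2-fold limit, with a counting interval of 0.24 to 1.90.

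Twist1, a factor of head mesenchyme and mesoderm, was the most abundant of these 4 per length. Its values were 2.70, 14.5 and 2.93 RPKM in WT, KO and KO+Dkk at day 6, and 3.18, 13.8 and 4.33 RPKM at day 10. KO exceeded WT by 5.36 times at day 6. The log2 ratios with the pseudocount were 2.23 and 1.96, and the counting intervals were 1.96 to 2.91 and 1.69 to 2.54.

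Twist2, its close paralog, known from dermal and mesenchymal cells, was at 0.22, 1.62 and 0.14 RPKM at day 6 and at 0.07, 1.67 and 0.57 RPKM at day 10, in the same order. The WT values rest on 6 and 2 estimated reads. The log2 read ratio of KO to WT had a counting interval of 1.55 to 4.32 at day 6 and 2.64 to 7.66 at day 10, where the ratio of RPKM values was 23.9. Reads that match both Twist genes were treated in a way not given in the sources used here, so the split between them is uncertain.

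Zeb1, a zinc finger repressor of epithelial genes, was at 11.7, 11.7 and 10.8 RPKM in WT, KO and KO+Dkk at day 6, and at 24.1, 26.7 and 21.4 RPKM at day 10. Zeb2, its paralog with roles in neural and crest development, was at 11.7, 10.1 and 8.11 RPKM and then at 13.3, 11.5 and 9.85 RPKM. In both genes the 3 conditions lay close together on each day. Cdh2 was likewise level, at 111.2, 95.6 and 106.7 RPKM at day 6 and at 108.6, 102.2 and 99.9 RPKM at day 10.

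Vim differed from the other 3 genes in this respect. It was at 264.2, 235.4 and 193.6 RPKM at day 6 and at 537.2, 847.4 and 729.0 RPKM at day 10. KO was slightly below WT at day 6, with a log2 ratio of -0.17, and above it at day 10, with 0.66. The counting interval at day 10 was 0.63 to 0.69, still under 2-fold.

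By the 2-fold count, 4 of 8 genes were higher and 0 lower in KO at day 6, where 4.89% of the 12912 genes compared were higher and 2.18% lower. On day 10 the count was 3 of 8 higher and 0 lower, against 8.28% higher and 1.96% lower of all genes. Median log2 ratios of the 8 genes were 0.73 and 0.71 at days 6 and 10, beside 0.00 and 0.06 for all genes. The 4 SNAI and TWIST genes had medians of 1.89 and 1.58, and the other 4 had -0.19 and 0.03. This grouping was made after the values had been seen.

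A limma fit on all 10 libraries, additive in condition and day, with the days as the only repeats, called 0 of the 8 genes for the KO effect at adjusted p below 0.05. Of 13757 genes fitted, limma called 0.196% higher and 0.0145% lower. At an unadjusted p under 0.05 there were 2 of the 8 genes and 2017 of all genes. For Snai1 limma gave a mean log2 difference of 1.78 (SE 0.34) and an adjusted p of 0.0988, and for Twist1 2.09 (SE 0.50) and 0.143. Snai2 reached 1.12 (SE 0.86) with an adjusted p of 0.589, and Twist2 1.74 (SE 0.82) with 0.385, both by limma. The spread in this fit is shared by both cultures. Fitted on the SFEB libraries alone, limma again called 0 of 8. There, 4 of 8 and 2481 of all genes had an unadjusted limma p under 0.05.

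The second comparison asked how the same genes differed between KO with and without Dkk. Snai1, Snai2, Twist1 and Twist2 were each lower with Dkk on both days. On day 6 the log2 ratios of KO+Dkk to KO were -1.67, -1.58, -2.13 and -1.73, in that order. On day 10 they were -1.33, -0.80, -1.57 and -1.02. The counting intervals of all 8 ratios lay below 0, the nearest being -1.72 to -0.52 for Snai2 at day 10. Those of day 10 use the KO+Dkk depth of that day, the least certain in SFEB. Zeb1, Zeb2, Cdh2 and Vim differed by log2 -0.31 to 0.16.

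At least 2-fold lower with Dkk were 4 of 8 genes at day 6 and 3 of 8 at day 10, and 0 were higher. Among all genes 3.58% were lower and 2.18% higher at day 6, and 5.23% lower and 1.7% higher at day 10. The medians of the 8 genes were -0.94 and -0.56, beside 0.01 and -0.01 for all genes. This comparison and the one with WT share the KO libraries, so opposite signs in them are not separate observations. limma called 0 of 8 genes for the Dkk effect, with 2 of 8 at an unadjusted p under 0.05, where it called 0.0145% of genes higher and 0.116% lower and 781 genes had an unadjusted p under 0.05. Snai1 had a mean log2 difference of -1.50 (SE 0.34) with an adjusted p of 0.34, and Twist1 -1.85 (SE 0.50) with 0.507, by limma. From the SFEB libraries alone limma also called 0 of 8 for the Dkk effect. In that fit 4 of 8 and 1048 of all genes had an unadjusted limma p under 0.05.

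Set directly against WT, KO+Dkk had 0 of 8 genes at least 2-fold higher or lower on either day. All genes gave 1.59% higher and 0.984% lower at day 6, and 4.6% higher and 1.69% lower at day 10. Snai1 differed by 0.65 on the log2 scale at day 6, with a counting interval of -0.07 to 2.03, so it was not distinguishable at this depth. Twist2 was the nearest to the limit at day 10, at 0.57 against 0.07 RPKM, with a log2 ratio of 0.91 with the pseudocount. Without it the RPKM ratio was 8.14, a log2 ratio of 3.03 with a counting interval of 1.10 to 6.10, all past 2-fold. Twist2 thus stayed under the limit through the pseudocount, and its WT value rests on 2 estimated reads. Zeb2 was lower on both days, by log2 -0.51 and -0.42, with intervals of -0.67 to -0.40 and -0.53 to -0.34. Vim was at -0.45 at day 6 and 0.44 at day 10. limma called 0 of 8 genes and had 0 of 8 at an unadjusted p under 0.05, where it called 0.00727% of all genes higher and 0 lower, with 1618 at an unadjusted p under 0.05. From the SFEB libraries alone limma called 0 of 8, with 1 of 8 and 1941 of all genes at an unadjusted p under 0.05.

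**Figure D2:**
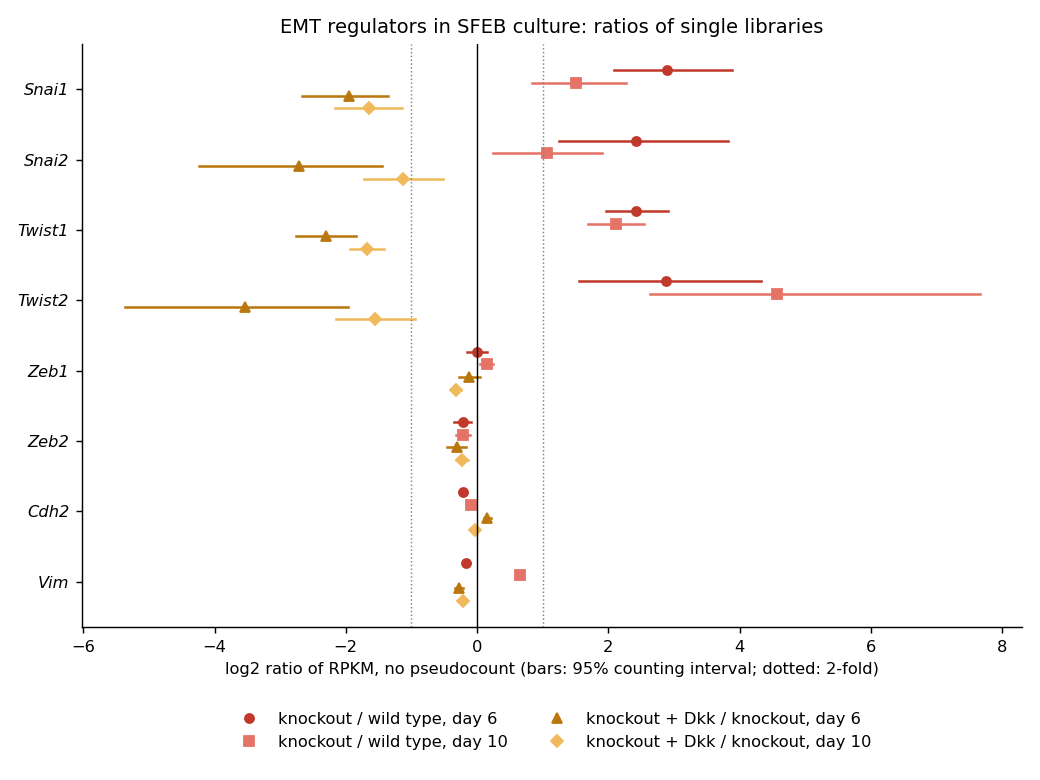
Log2 ratio of RPKM without pseudocount between 2 single SFEB libraries for each of the 8 genes. Bars are 95% intervals of counting error alone, and dotted lines mark 2-fold. Snai1, Snai2, Twist1 and Twist2 lie to the right of 0 for KO over WT and to the left of 0 for KO+Dkk over KO on both days, while Zeb1, Zeb2 and Cdh2 lie near 0.

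From day 6 to day 10 in SFEB, Vim and Zeb1 were near or above 2-fold higher in each condition. Vim differed by log2 1.02 in WT, 1.85 in KO and 1.91 in KO+Dkk, and Zeb1 by 1.01, 1.16 and 0.96. At least 2-fold higher were 2 of 8 genes in WT, 2 in KO and 1 in KO+Dkk, where all genes gave 16.9%, 21.1% and 17.6%. At least 2-fold lower were 0 of 8, against 7.98%, 8.01% and 6.82% of all genes. limma called Vim for the SFEB day effect (log2 1.59, SE 0.32, adjusted p = 0.00726), beside 28.2% of genes higher and 18.1% lower, and gave Zeb1 1.04 (SE 0.47, adjusted p = 0.111). Without any 1 of the 4 KO libraries, treated or untreated, the limma adjusted p of Vim lay between 0.059 and 0.0609. Without any 1 of the 4 FBS libraries Zeb1 passed too, at limma adjusted p values of 0.00231 to 0.00249.

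In FBS culture, the question was how the 8 genes differed between CTL and OE cells. All 8 genes were highest in the CTL library of day 7, the one with the blood RNA, and most were near the day 4 level in the OE library of that day. Snai1 was at 3.06 RPKM in CTL and 2.65 in OE at day 4, and at 8.74 and 4.14 RPKM at day 7. Snai2 was at 0.47 and 0.51 RPKM at day 4, and at 13.7 and 0.31 RPKM at day 7. The CTL value of day 7 was by far the highest of Snai2 in any library.

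Twist1 was at 3.80 RPKM in CTL and 2.88 in OE at day 4, and at 22.3 and 2.94 RPKM at day 7. Twist2 was at 0.92 and 0.75 RPKM at day 4, and at 15.4 and 0.44 RPKM at day 7. For both Twist genes the OE cells stayed at or below the day 4 CTL value. Zeb1 was at 1.97 and 4.44 RPKM at day 4, and at 12.3 and 3.0 RPKM at day 7. Zeb2 was at 1.17 and 1.21 RPKM at day 4, and at 4.09 and 1.69 RPKM at day 7. Zeb1 was thus the gene of the 8 with a clearly higher value in OE at day 4.

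Cdh2 was at 5.47 RPKM in CTL and 4.46 in OE at day 4, and at 34.2 and 18.9 RPKM at day 7. Vim was at 142.3 and 103.4 RPKM at day 4, and at 631.4 and 141.0 RPKM at day 7. Cdh2 was higher at day 7 in both conditions, whereas Vim remained near its day 4 values in OE.

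On day 4, 1 of 8 genes, Zeb1, was at least 2-fold higher in OE, exactly at the limit, and 0 were lower. All 12387 genes compared gave 1.72% higher and 3.49% lower. On day 7, 6 of 8 genes were at least 2-fold lower and 0 higher, against 11.1% lower and 6.96% higher of all genes. The log2 ratios of day 7 were -4.13 for Snai2, -4.08 for Twist2, -2.73 for Twist1, -2.16 for Vim, -1.87 for Zeb1 and -1.07 for Zeb2. Snai1 at -0.99 and Cdh2 at -0.84 fell short of the limit. Snai2 ranked 31 and Twist2 ranked 33 from the lowest of the 12387 ratios. Without the pseudocount their log2 ratios were -5.46 and -5.13, with counting intervals of -6.46 to -4.60 and -5.89 to -4.50. The median of the 8 genes was -0.18 at day 4 and -2.02 at day 7, beside -0.07 and -0.03 for all genes.

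From day 4 to day 7, all 8 genes were at least 2-fold higher in CTL cells and 1 of 8, Cdh2, in OE. All genes gave 11.5% higher and 8.73% lower in CTL, and 3.5% higher and 1.2% lower in OE, where 0 of the 8 genes were lower. The CTL log2 differences ran from 1.38 for Snai1 to 3.87 for Snai2, and Cdh2 had 2.54 in CTL and 1.97 in OE. Medians of the 8 genes were 2.39 and 0.19, beside -0.01 and 0.03 for all genes. The day 7 comparison and the CTL time course share the CTL library of day 7.

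limma called 0 of 8 genes for the overexpression effect over both days, with 4 of 8 at an unadjusted p under 0.05, where it called 0.0436% of genes higher and 0.0509% lower and 2702 had an unadjusted p under 0.05. Twist2 had a mean log2 difference of -2.13 (SE 0.82) with a limma adjusted p of 0.226, and Vim -1.31 (SE 0.39) with 0.16. Without either day 4 library the FBS fit rests on day 7 alone, with the spread taken from SFEB, and limma then called 6 of 8 genes lower. Without either day 7 library the mean difference of Snai2, -2.03 over both days, became 0.0583. For the FBS day effect limma called Cdh2 alone of the 8 (log2 2.25, SE 0.16, adjusted p = 0.0117), beside 0.422% of genes higher and 0.0291% lower. The limma call on Cdh2 ended without the CTL library of day 4 or of day 7, at adjusted p values of 0.196 and 0.2. It ended also without any 1 SFEB library, at limma adjusted p values of 0.0621 to 0.099.

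**Figure D3:**
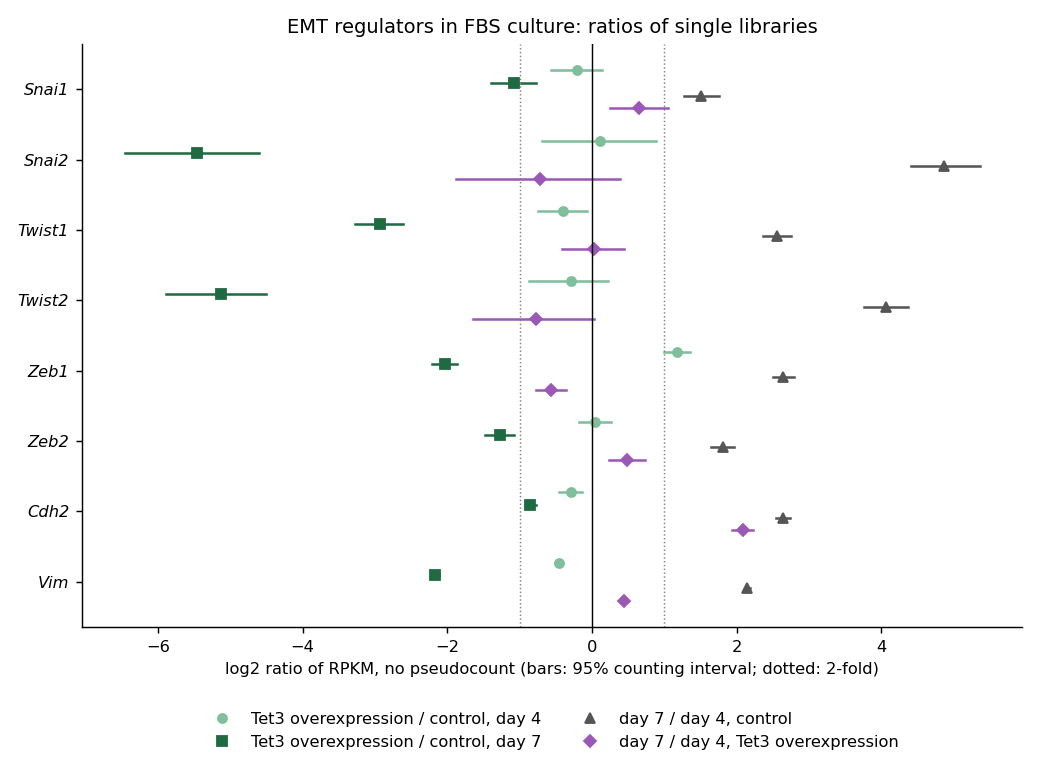
Log2 ratio of RPKM without pseudocount between 2 single FBS libraries for each of the 8 genes, with 95% intervals of counting error alone and dotted lines at 2-fold. All 8 genes lie to the right of the 2-fold line for day 7 over day 4 in CTL cells, and all 8 lie below 0 for overexpression over CTL at day 7.

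The balance of the 2 classical cadherins separated the cultures. In SFEB, Cdh2 exceeded Cdh1 in each of the 6 libraries, by 9.71, 4.00 and 9.68 times in WT, KO and KO+Dkk at day 6 and by 6.33, 16.1 and 13.2 times at day 10. Cdh1 was at 11.5, 23.9 and 11.03 RPKM at day 6 and at 17.1, 6.36 and 7.59 RPKM at day 10. KO thus had the highest Cdh1 of the 3 conditions at day 6, together with the highest Snai1 and Twist1, and the lowest at day 10. In FBS, Cdh1 exceeded Cdh2 in each of the 4 libraries, by 20.4 and 19.9 times in CTL and OE cells at day 4 and by 1.4 and 6.59 times at day 7. Culture and day differ together between SFEB and FBS, and the lines may differ too, so these cannot be told apart.

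**Figure D4:**
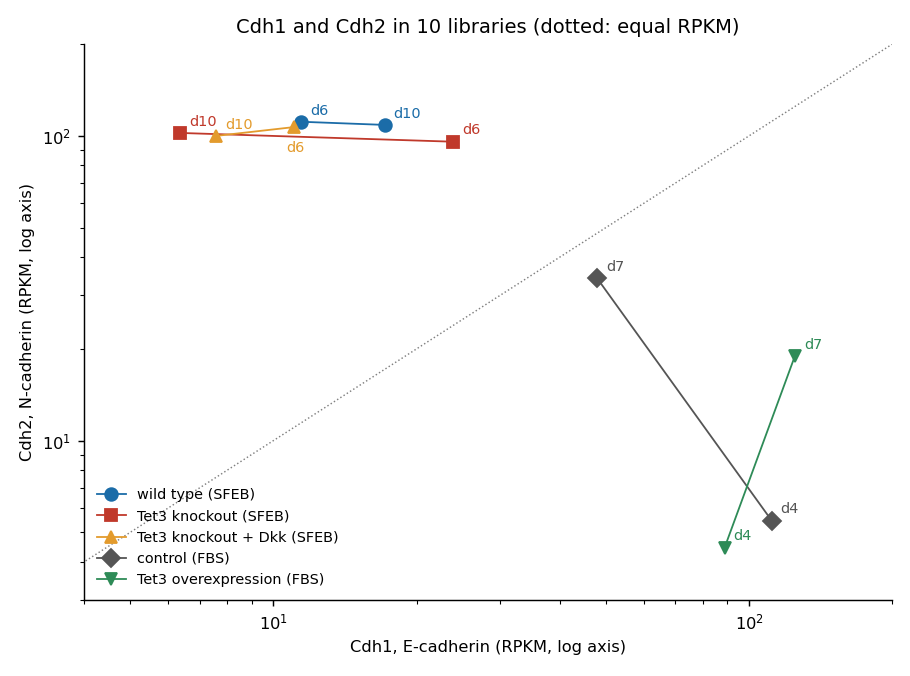
RPKM of Cdh2 (N-cadherin) against Cdh1 (E-cadherin) in the 10 libraries, both on log axes, with the dotted line at equal RPKM and lines joining the 2 days of a condition. The 6 SFEB libraries lie above the dotted line and the 4 FBS libraries below it, and KO moves from the highest to the lowest Cdh1 of SFEB between days 6 and 10.

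Related gene lists were then described the same way. For comparison, 4.89% of all genes were higher and 2.18% lower in KO at day 6, and 8.28% and 1.96% at day 10. With Dkk in KO, 3.58% of all genes were lower and 2.18% higher at day 6, and 5.23% and 1.7% at day 10. Of 32 epithelial adhesion and identity genes compared in SFEB, 14 passed 2-fold upwards and 0 downwards in KO at day 6, and 0 upwards and 2 downwards at day 10. The keratin genes Krt8 and Krt18 were at 22.1 and 22.7 RPKM in WT and at 91.9 and 96.3 RPKM in KO at day 6. Cldn6, a tight junction gene, was at 5.78 RPKM in WT and 30.9 in KO. Epcam, an epithelial adhesion gene, was at 7.22 RPKM in WT and 18.3 in KO. On day 10 Krt8 was at 52.0 RPKM in WT and 25.3 in KO. With Dkk 14 of the 32 were lower and 0 higher at day 6, and 0 were lower and 1 higher at day 10. Some of the 32 reached 1 RPKM in SFEB only in KO at day 6, so the Dkk count of that day follows in part from the filter.

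Of 31 mesenchymal effector genes, 11 were at least 2-fold higher in KO at day 6 and 23 at day 10, with 0 lower on either day. Their medians were 0.52 and 1.71. Foxc2, a forkhead factor of mesoderm, was at 0.11 RPKM in WT and 21.3 in KO at day 6. Foxc1, its paralog, was at 0.25 and 13.6 RPKM at day 6 and at 0.66 and 9.07 RPKM at day 10. Col1a2, a fibrillar collagen gene, was at 1.85 and 69.1 RPKM at day 10. Fn1, encoding fibronectin, was at 45.9 and 78.3 RPKM at day 6 and at 20.6 and 47.3 RPKM at day 10. Cdh11, a mesenchymal cadherin, was at 17.3 and 20.1 RPKM at day 6 and at 29.8 and 56.1 RPKM at day 10. With Dkk 9 of the 31 were lower and 1 higher at day 6, and 21 lower and 0 higher at day 10. Some of the 31, such as Foxc2, reached 1 RPKM in SFEB only in KO without Dkk, so these counts follow in part from the filter.

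Among 28 TGF-beta inducers and transducers, 8 were at least 2-fold higher in KO on each day and 0 lower, with medians of 0.30 and 0.38. Bmp4, a ligand of the family, was at 0.25 RPKM in WT and 1.80 in KO at day 6, and Tgfb2 was at 0.44 and 4.73 RPKM. Id1, a target gene of BMP signalling, was at 7.52 and 28.2 RPKM at day 6 and at 4.54 and 27.3 RPKM at day 10. With Dkk 5 of the 28 were lower and 0 higher on each day. Some of the 28 reached 1 RPKM in SFEB only in KO without Dkk, so the counts of this list follow in part from the filter. Of 29 genes for partners and turnover of the SNAI, TWIST and ZEB proteins, such as kinases, ubiquitin ligases and corepressors, 0 passed 2-fold in either direction between any 2 of the 3 SFEB conditions on the same day. The shares of all genes past 2-fold in 1 direction in these comparisons were themselves low, from 0.984% to 8.28%. Snai3, the remaining SNAI family gene, stayed at or below 0.18 RPKM in SFEB.

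In FBS at day 7, 25 of 31 mesenchymal genes were at least 2-fold lower in OE and 1 higher, with a median of -1.57. Some, such as Foxc1 and Foxc2, reached 1 RPKM in FBS only in CTL at day 7, so this count follows in part from the filter. Of 30 TGF-beta genes 13 were lower and 1 higher. Of 37 epithelial genes 4 were higher and 3 lower. Bmp4 was at 39.8 RPKM in CTL and 3.04 in OE at day 7, and Col1a2 at 58.5 and 5.59 RPKM. On day 4 the epithelial list had 13 of 37 lower and 0 higher, and the mesenchymal list 2 of 31 higher and 2 lower. Among all genes 11.1% were lower and 6.96% higher at day 7, and 3.49% lower and 1.72% higher at day 4. The epithelial counts of day 7 were thus near the shares of all genes. Of the 29 partner and turnover genes 1 was higher and 2 lower at day 7, namely Pak1 at log2 1.49, Suv39h1 at -2.09 and Lats2 at -1.23, which were picked out after their values had been seen.

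**Figure D5:**
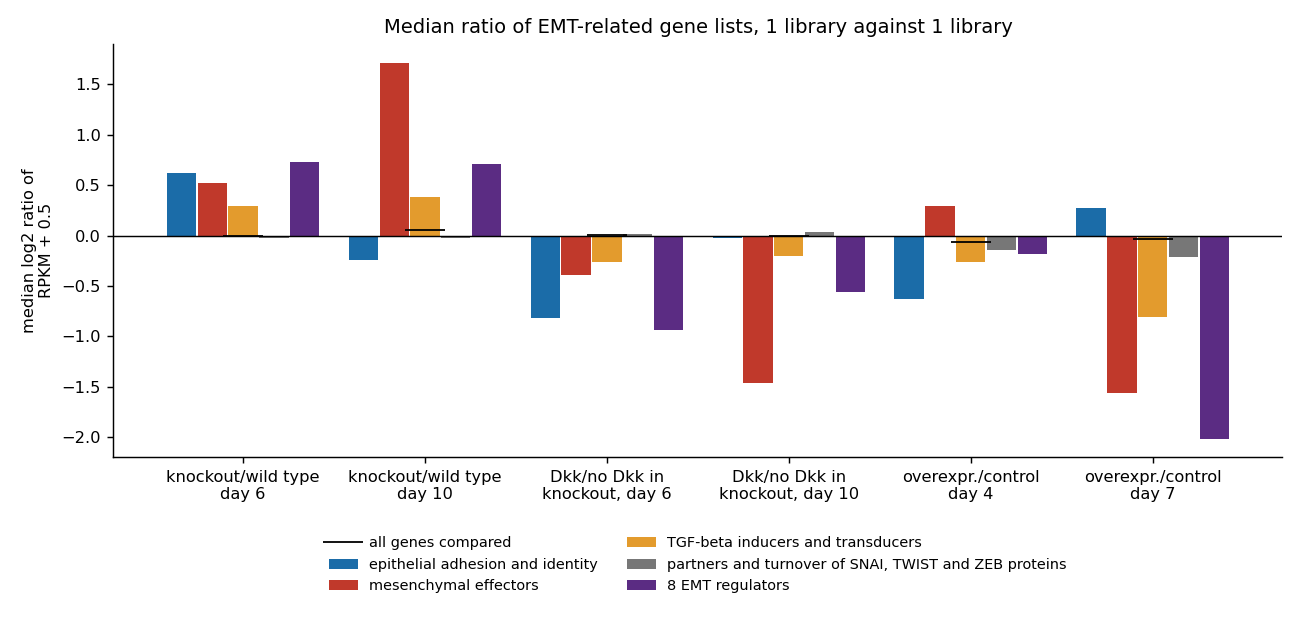
Median log2 ratio of RPKM + 0.5 between 2 single libraries for 4 gene lists and the 8 regulators (bars), with a black line for the median of all genes compared. Mesenchymal effectors stand at 1.71 for KO over WT at day 10 and at -1.57 for overexpression over CTL at day 7, and the partner and turnover genes stay near the median of all genes.

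Markers of other cell types moved with these results, and their part in them was not tested. Summed over 12 fibroblast markers, SFEB libraries held 35.3, 109.0 and 47.7 RPKM in WT, KO and KO+Dkk at day 6, and 56.7, 719.4 and 88.3 RPKM at day 10. Of the 12 fibroblast genes compared, 5 were at least 2-fold higher in KO at day 6 and 12 at day 10. Primitive streak and early mesoderm markers summed to 29.8, 314.6 and 55.6 RPKM at day 6. On day 10 their sums were 28.8, 60.2 and 28.4 RPKM. Of 14 compared, 11 were higher and 0 lower in KO at day 6, and 7 higher and 2 lower at day 10. Beside these counts, 4.89% of all genes were higher and 2.18% lower at day 6, and 8.28% and 1.96% at day 10. Some, such as Mesp1, Mesp2 and Msgn1, reached 1 RPKM in SFEB only in KO at day 6, so their counts follow in part from the filter. Lists overlap: 6 of the 12 fibroblast markers (Col1a1, Col1a2, Col3a1, Pdgfrb, Postn and Thy1) and 2 of the 16 streak and mesoderm markers (Pdgfra and Foxc2) are also among the 32 mesenchymal effectors, so these lists are not separate observations.

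Neural crest, another natural setting of Snai2 and Twist1, had markers that moved both ways. The 14 markers summed to 49.0, 44.0 and 31.2 RPKM in the same 3 conditions at day 6 and to 102.5, 135.5 and 116.5 RPKM at day 10. Without Ngfr, a receptor gene at 13.9 RPKM in WT, 70.8 in KO and 16.4 in KO+Dkk at day 10, the day 10 sums were 88.6, 64.7 and 100.1 RPKM, so the place of KO in that order rested on 1 gene. This sum was added after the data had been seen.

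Of 12 crest markers compared at day 6, 1 passed 2-fold upwards in KO and 1 downwards, around a median of 0.001. The former was Ets1, at 13.1 against 1.68 RPKM. Among all genes 4.89% were higher and 2.18% lower at day 6, and 8.28% and 1.96% at day 10. The crest counts of day 6 were thus near the shares of all genes. At day 10 the 3 higher in KO were Ets1, Foxd3 and Ngfr, with Foxd3, a crest specifier, at 1.69 RPKM against 0.41 in WT. The 3 lower were Tcfap2a, Tcfap2b and Pax3, transcription factor genes of crest and dorsal neural tube. Tcfap2b was at 3.25 RPKM against 25.1 in WT, and Pax3 at 7.25 against 18.1 RPKM. Foxd3 was listed at 0 in KO at day 6, and Sox10, a defining crest gene, was at or below 0.30 RPKM in every library. Neural progenitor markers summed to 585.3 RPKM in WT and 374.0 in KO at day 6, and to 1027 and 1236 RPKM at day 10.

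In FBS the day 7 CTL library carried far more cardiac and blood RNA than the other 3. Its 14 cardiac markers summed to 411.7 RPKM against 46.3 in OE of day 7, and its 12 endothelial and blood markers to 3207 against 34.8 RPKM. On day 4 these sums were 18.9 and 10.6 RPKM for cardiac and 23.8 and 20.5 RPKM for endothelial and blood markers, in CTL and OE cells. Fibroblast markers summed to 492.2 and 115.2 RPKM at day 7. At least 2-fold lower in OE at day 7 were 12 of 12 cardiac, 11 of 12 endothelial and blood and 8 of 11 fibroblast genes compared, with 2 of the fibroblast genes higher. Of 14 primitive streak and mesoderm genes 8 were higher and 4 lower. Among all genes 11.1% were lower and 6.96% higher. The part of these cells in the values of the 8 genes was not tested.

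Across the 10 libraries the 8 genes fell into 2 sets by correlation of log2(RPKM + 0.5), given here as a description over libraries that share conditions and cultures. Snai2 and Twist2 had a Pearson r of 0.935, Snai2 and Twist1 0.89, and Twist1 and Twist2 0.863. Zeb2 and Cdh2 had 0.97, Zeb1 and Zeb2 0.909, and Zeb1 and Vim 0.862. Between the sets values were lower, such as -0.226 for Snai1 and Zeb1 and 0.003 for Snai1 and Vim. Other pairs between the sets were closer, with 0.567 for Snai2 and Vim and 0.538 for Twist1 and Vim. These lay near the 0.663 of Cdh2 and Vim within a set. Without the CTL library of FBS day 7, left out after the data had been seen, Snai2 and Twist2 had 0.701, Snai1 and Snai2 went from 0.702 to 0.476 (below the 0.603 of Snai2 and Vim, from the 2 different sets), and Zeb2 and Cdh2 stayed at 0.97.

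For each gene the 3 most alike genes by the same measure were sought among 10799 genes at 5 RPKM or more in some library. Those of Twist1 were Rcsd1 at 0.975, Pdgfrb at 0.948 and Pdgfra at 0.937, the last pair being receptors of platelet-derived growth factor. Those of Snai2 were Angpt2 at 0.963, Sh2b3 and Gpr124 at 0.95, and those of Twist2 were Elk3 at 0.973, Mbd6 and Gpr124 at 0.971. Snai1 was most like Ripk2 at 0.938, Tenc1 at 0.937 and 1110018J18Rik at 0.931. Zeb1 was most like Lix1l at 0.987, Megf10 at 0.981 and Dchs1 at 0.979, and Zeb2 most like Ncoa6 at 0.996, Sc5d at 0.995 and Ccdc50 at 0.993. For Cdh2 these were Sc5d at 0.983, Ift74 and Zhx1 at 0.98, and for Vim Sec22b at 0.997, Kalrn at 0.989 and H47 at 0.981. Snai2 and Twist2 were at 13.7 and 15.4 RPKM in the CTL library of FBS day 7, against 1.83 and 1.67 RPKM or less elsewhere. How far their likeness rests on that library was not tested. Cdh2 ranged by 1.16 times within SFEB and 24.9 times over all 10 libraries, so much of its range lay outside SFEB.

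Ratios between paralogs within a library varied as well. Twist1 over Twist2 was 12.3, 8.94 and 20.9 in WT, KO and KO+Dkk at day 6 and 45.4, 8.26 and 7.60 at day 10. In FBS it was 4.13 and 3.84 at day 4 and 1.45 in CTL and 6.68 in OE at day 7. The CTL library of day 7 was thus the one with the nearest levels of the 2 Twist genes. It was also the only library with more Snai2 than Snai1 per length, at a Snai1 over Snai2 ratio of 0.64 against 1.46 to 13.4 elsewhere. Zeb1 over Zeb2 ran from 1.0 to 1.81 in WT on the 2 days, and from 1.16 to 2.32 in KO.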

How the data were processed

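RNA of 10 libraries was sequenced on the SOLiD platform, per the labels' protocols. The authors deposited RPKM values with 2 decimals for 21937 symbols, 1 column per library, and HTSeq and build mm9 are named per the submitters' processing notes. Not given in the sources used here were aligner, annotation, strandedness and the handling of multiply matching reads. RPKM are not counts, so no count model was run. Column names were matched to sample titles.

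Ratios are differences of log2(RPKM + 0.5) computed from the deposited RPKM, which understates changes of low genes. Genes at 1 RPKM or more in some library of a culture were compared, 12912 in SFEB and 12387 in FBS, over 13 pairs of libraries. Condition and day effects were fitted with limma 3.58.1 in R 4.3.3 (trend, Benjamini-Hochberg adjustment over 13757 genes). The fit was also run on simulated data with a fixed spread in all genes and the same effect on both days. That run could not check how the fit handles effects that differ between days, the source of spread here. The days are the only repeats, and where nothing marks separate cultures the spread may be technical. Depth was estimated from whole-read steps of low values, using GENCODE vM21 transcript lengths, with 58.2% to 73.2% of those values within 0.15 read of a whole number. Clopper-Pearson intervals (95%) of read ratios use these estimates and the longest coding transcript, and cover counting error only. They hold no pseudocount, so the pseudocount ratio of a low gene can lie outside its interval.

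The 8 genes and all gene lists were chosen with earlier results of these data known. Of 284 list entries, 279 matched by symbol and 4 by an older symbol. Named are all 8 genes, the 3 genes most like each by correlation, and from the epithelial, mesenchymal and TGF-beta lists the 3 genes each with the largest mean size of the KO ratio, plus Cdh1, Epcam, Fn1, Cdh11 and Snai3. Marker genes of other cell types, check genes (Tet3, Pou5f1, Hbb-y), Scrt1, Pak1, Suv39h1 and Lats2 fall outside this rule and were named after their values had been seen. The result of 1 marker gene is not reported here. Upstream sequences come from RefSeq (GRCm38.p6), and no coordinate was moved between builds. Other pseudocounts, filters, scalings and fits without each library were tried.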

Additional observations from a re-analysis of the deposited data

Results flagged for a closer look

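In 5 cases 2 conditions or days gave effects of opposite sign under the same contrast, with both counting intervals clear of 0. Each effect is between single libraries, and the difference between the effects was not tested. The log2 ratio of Vim between KO and WT was -0.167 at day 6 and 0.657 at day 10. For Vim between KO+Dkk and WT it was -0.447 at day 6 and 0.44 at day 10. Zeb1 had a log2 ratio of OE to CTL of 1.0 at day 4 and -1.871 at day 7. From day 4 to day 7 Zeb1 differed by 2.374 in CTL and by -0.497 in OE. Cdh2 differed from day 6 to day 10 by 0.095 in KO and by -0.095 in KO+Dkk, beside 0.162 and 0.137 for the median of all genes. With size factors both Cdh2 values were below 0, at -0.066 and -0.189, so the opposite sign depended on the scaling. The other 4 pairs kept opposite signs under the alternative pseudocounts, filters and scalings.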

How the results depend on the processing

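The log2 ratios of the 8 genes were recomputed with pseudocounts of 0.1 and 1, no filter, a filter of 5 RPKM, TPM scaling and size factors, and 43 of 602 moved by more than the distance from centre to edge of their counting interval. No ratio past 2-fold changed sign. Of ratios under 2-fold 8 did, each 0.095 or less in size, 3 of them of Cdh2 (day 10 over day 6 in KO to -0.066 and Dkk at day 10 to 0.033 with size factors, day 10 over day 6 in WT to 0.054 with TPM). Of the counts of these genes past 2-fold, 146 stayed within 1.5 times and 10 did not. A filter of 5 RPKM, which drops Snai2 and Twist2 in SFEB, gave 2 in place of 4 for KO and for Dkk at day 6. Pseudocount 0.1 and TPM scaling each gave 1 in place of 0 higher for KO+Dkk against WT at day 10, and 3 in place of 1 for its day 10 over day 6. Pseudocount 1 gave 0 in place of 1 for overexpression at day 4 and 1 in place of 2 for WT day 10 over day 6, where size factors gave 0, and in KO 1 in place of 2. limma members called for the SFEB day effect were 0 without a filter and 2 from SFEB alone (main 1), and 0 to 2 leaving out 1 library. For the FBS day effect they were 0 without a filter, 0 from FBS alone (main 1) and 0 to 7 leaving out 1 library, and for overexpression 0 to 6 lower. Leaving out 1 library, the Snai2 overexpression coefficient ran from -4.127 without a day 4 to 0.0583 without a day 7 FBS library. Gene counts also moved with a filter of 5 RPKM, for KO from 631 to 371 higher at day 6 and 1069 to 643 at day 10, for Dkk from 462 to 270 and 675 to 371 lower (1051 with TPM), for overexpression at day 7 from 1381 to 885 lower and for CTL day 7 from 1428 to 925 higher. In all 38 of 156 gene counts moved past 1.5 times. Size factors shifted the all-gene median by -0.129 for KO at day 10 and took the higher share of calls from 80.9% to 71.4%, and for overexpression at day 4 from 33.0% to 43.2%. For KO day 10 over day 6 the shift was -0.152 and the share went from 72.5% to 62.1%. TPM scaling took that of KO+Dkk over WT at day 10 from 73.2% to 57.4%, with a shift of -0.123. Shifts of 0.101 and 0.104 came with TPM in the day contrasts of WT and KO. The causes were not tested, other than fewer genes or libraries by construction. Low depth limits Snai2 and Twist2 in SFEB. No paired analysis was possible because the labels give no replicate numbers to pair, beyond the day term that the limma fit already holds.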

Other observations

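Scrt1, a neuronal zinc finger gene related to the SNAI family and picked out after its values were seen, followed the day rather than the condition. It was at 1.42, 0.58 and 0.63 RPKM in WT, KO and KO+Dkk at day 6 and at 15.5, 24.8 and 19.2 RPKM at day 10, and at or below 0.09 RPKM in FBS. Snai3 had another pattern in FBS, at 3.87 RPKM in CTL and 5.46 in OE at day 4 and at 0.44 and 2.19 RPKM at day 7, so it was lowest where Snai1 and Snai2 were highest.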
